A study of Mus musculus with 4 samples.

Results

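The genes described here encode the proteins of the cytosolic ribosome, read on Affymetrix mouse arrays from cultured bone marrow cells. They were picked by symbol (Rpl or Rps with a number, Rpsa, and the stalk proteins Rplp0 and Rplp2), on probe sets annotated to exactly 1 symbol and with pseudogenes left out. This gave 44 genes on 95 probe sets, of 12394 genes tested in all. Of them, 24 encode proteins of the large subunit and 20 of the small subunit. RefSeq lists 81 genes under this symbol rule. Another 27 of these lay only on probe sets annotated to several symbols, and 10 were on neither kind of probe set.

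All 4 arrays came from bone marrow of Mll-AF4stop knock-in mice, whose fusion of MLL and AF4 is meant to stay silent until Cre acts on it. The mice had been given 5-FU, which kills dividing cells, and 5 days later their marrow was infected ex vivo with a retrovirus, sorted for GFP 2 days after that, and grown for 14 days with cytokines for lymphoid progenitors. The 2 Cre-GFP arrays received a virus with Cre and GFP, and the 2 control arrays a GFP virus per the sample labels, although the design text names the control virus MIG-Cre. Strain, age and the number of mice are not given in the sources used here, and nothing says that arrays of 1 group came from separate animals or cultures, so the p-values reflect array-to-array spread alone, possibly technical. The presence of Cre and the activation of the fusion cannot be told apart.

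A ribosome is built from ribosomal RNA and 1 copy of most ribosomal proteins, so these genes are normally made in balanced amounts. Many of their mRNAs begin with a tract of pyrimidines through which mTORC1 signalling adjusts their translation, and Myc raises their transcription in growing cells. Blood formation is sensitive to their dose: loss of 1 allele of RPS19 and of several others causes Diamond-Blackfan anaemia, in which red cell precursors fail. Unassembled Rpl5 and Rpl11 bind Mdm2 and thereby stabilise p53.

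Start sites of these genes were set side by side because a pyrimidine tract there is known for this family and the symbol rule did not use it. In the RefSeq table of mouse starts (GRCm38.p6), 39 of the 44 genes had an entry. An unbroken run of 8 or more C or T on the gene's strand, within 30 bases either side of an annotated start, was found in 23 of the 39 (59.0%), against 26.1% of the 9888 tested genes with an entry and 25.8% of all 27025 genes in the table. The tract length and the windows were chosen after the sequences were seen. The sequences below run from 30 bases before to 30 after the outermost annotated start, 5′ to 3′. The longest run of C and T is in capitals, or the first where longest runs tie, as in Rps27l. The first 6 show the tract in members of both subunits, and the last 2 are Rps27l and Rpl3l, the paralogs lowest in Cre-GFP.
Rps18 (chr17:33955636-33955695, minus strand): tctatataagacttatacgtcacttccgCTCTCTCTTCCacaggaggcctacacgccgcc
Rps6 (chr4:86857338-86857397, minus strand): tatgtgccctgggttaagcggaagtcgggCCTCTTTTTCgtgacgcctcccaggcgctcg
Rplp2 (chr7:141447621-141447680, plus strand): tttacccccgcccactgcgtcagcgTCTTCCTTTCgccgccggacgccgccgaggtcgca
Rpl11 (chr4:136053364-136053423, minus strand): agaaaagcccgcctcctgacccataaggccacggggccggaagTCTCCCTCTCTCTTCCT
Rpl13a (chr7:45128716-45128775, minus strand): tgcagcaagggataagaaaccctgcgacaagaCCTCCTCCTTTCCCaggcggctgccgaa
Rpl35 (chr2:39005102-39005161, minus strand): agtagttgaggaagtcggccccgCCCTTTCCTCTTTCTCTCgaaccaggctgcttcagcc
Rps27l (chr9:66946056-66946115, plus strand): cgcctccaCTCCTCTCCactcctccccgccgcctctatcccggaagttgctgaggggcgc
Rpl3l (chr17:24727796-24727855, plus strand): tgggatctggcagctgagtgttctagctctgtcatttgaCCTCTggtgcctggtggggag

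Annotated starts can lie upstream of the base where transcription begins, so these runs are a description of the window and not of the mRNA's first base. The longest run was 18 bases in Rpl35, 9 in Rps27l and 5 in Rpl3l, the muscle form of Rpl3, and 21 in Rpl7a, the longest among the members. The members' median was 9 and the shortest was 4, in Rpl41 and Rps4x. Rpl19, Rpl22, Rpl27, Rps19 and Rps28 also had 5, so a short run was not particular to Rpl3l. In Rpl11 the run held 17 bases up to the last base of the window, so its full length is not shown. Within the same window CTTTCC on the gene's strand stood in 8 of 39 genes (20.5%, against 3.2% of tested genes and 3.4% of all). The CTTTCC matches overlap the C and T runs. In the whole entry, from 250 bases before to 50 after, CCGGAA, the core bound by Ets-family factors, stood on either strand in 26 of 39 (66.7%, against 26.1% of tested genes and 16.7% of all). TCTCGCGA, on either strand, stood in 8 (20.5%, against 2.1% and 1.1%). The E-box CACGTG, a letter sequence that Myc with Max can bind and that reads the same on both strands, stood in 4 (10.3%, against 10.8% and 8.1%), and TATAAA on either strand in 5 (12.8%, against 11.9% and 15.7%). A match is not a binding site, and these windows are short.

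No ribosomal protein gene passed the test between Cre-GFP and control, and most differences were small. All values are log2 of the deposited intensities, and a difference is the Cre-GFP mean minus the control mean on that scale, with limma's standard error (SE). The median difference over the 44 genes was 0.037, beside 0.00 over all genes, and the single differences ran from −0.32 for Rpl3l to 0.33 for Rpl8. Of the 44, 31 were higher and 13 lower in Cre-GFP. Limma called 0 of the 44 at an adjusted p of 0.05 over all genes, a threshold passed by 0% of the 12394 genes (600 had an unadjusted p under 0.05, and an ordinary two-sample test with Benjamini-Hochberg adjustment called 2). At an unadjusted p under 0.05, 0 members were higher (2.31% of all genes) and 1 lower, Rpl3l (2.53% of all genes).

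**Figure D1:**
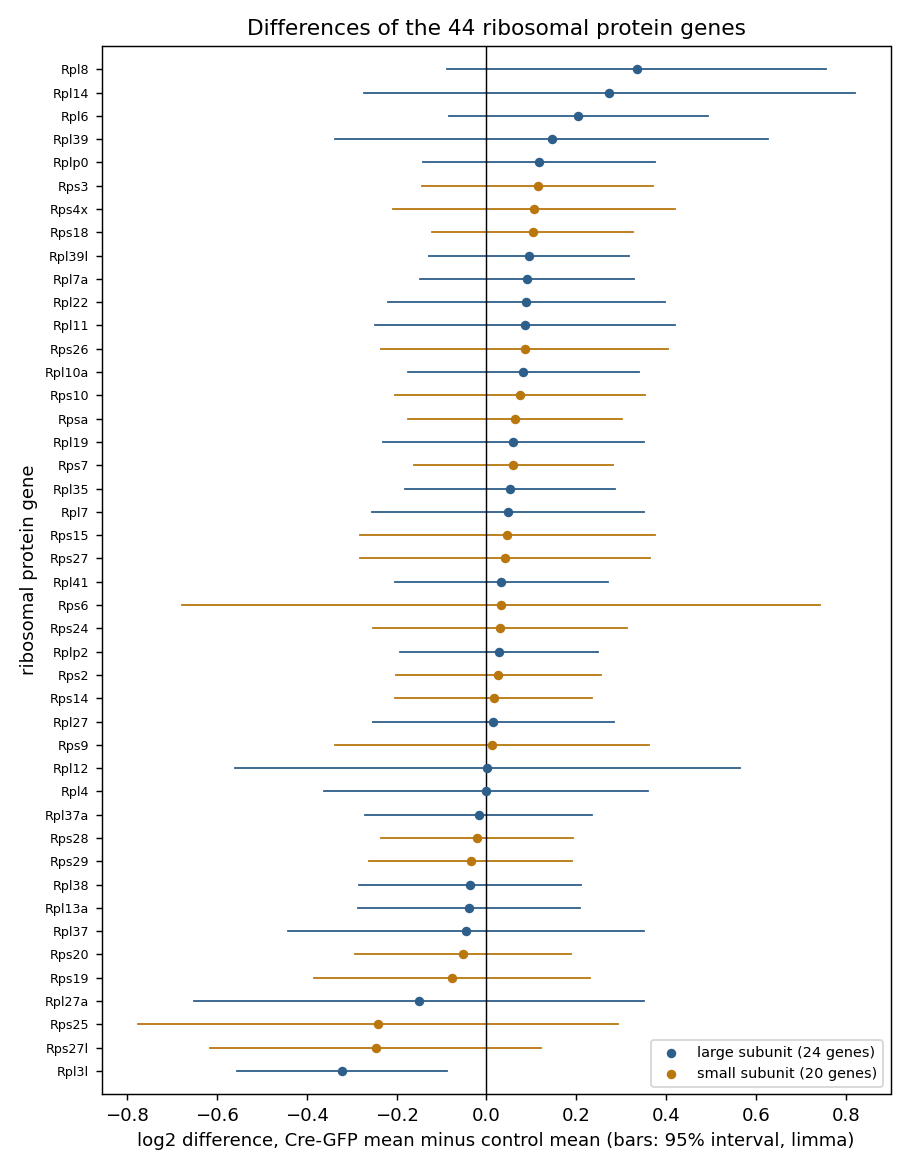
Log2 difference (Cre-GFP mean minus control mean, n = 2 arrays each) of each of the 44 ribosomal protein genes on the horizontal axis, with limma's 95% confidence interval as a bar, large subunit genes in blue and small subunit genes in orange. Points run from −0.32 (Rpl3l) to 0.33 (Rpl8), and every bar but that of Rpl3l crosses 0.

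Differences were smaller in the members than in the genes at large, which is a description with no test. Differences lay within 0.1 of 0 for 32 of 44 members (72.7%), against 49.9% of all genes, and the median size of a difference was 0.060 in members and 0.10 in all genes. Limma's 95% interval lay inside −0.5 to 0.5 for 35 members, so for those a change of that size in either direction lay outside it. The same held for 6804 of all 12394 genes. Among members it held for 32 of the 33 with a mean of 12 or more and for 3 of the 11 dimmer ones. In the 33 members whose mean was 12 or more the median size was 0.052, beside 0.094 in the 247 other genes past that limit. The median gap between replicates was 0.046 (Cre-GFP) and 0.078 (control), beside 0.15 and 0.13. Brightness was not matched: median group means were 13.65 (Cre-GFP) and 13.67 (control) in these members, beside 12.62 and 12.63. This brightness limit was chosen after the values were seen, and saturation of such bright probe sets was not tested. The 11 dimmer members had a median size of 0.15 on the probe sets used. Several of these genes, such as Rps6 and Rps27, are also listed on much brighter probe sets with several symbols.

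**Figure D2:**
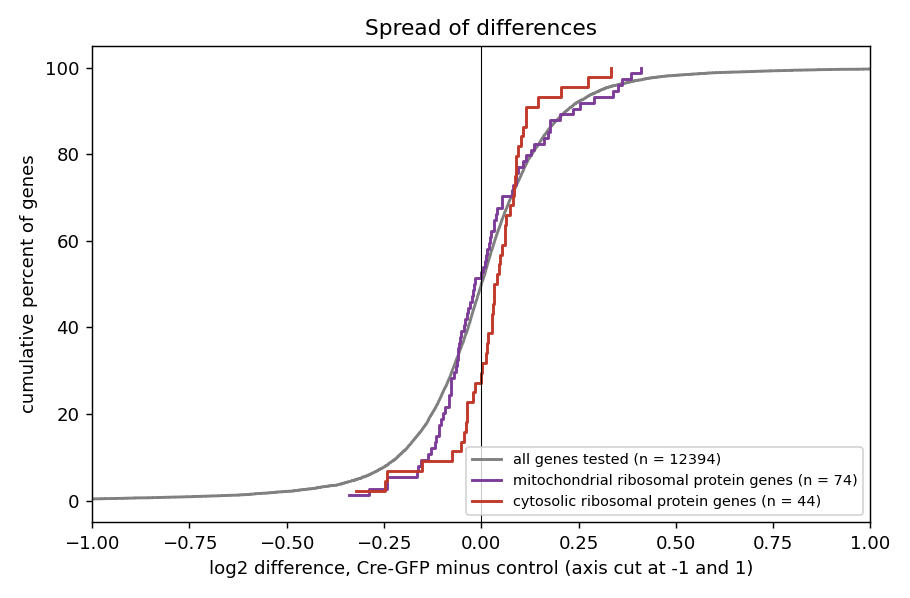
Cumulative percent of genes (vertical axis) by log2 difference, Cre-GFP minus control (horizontal axis, shown from −1 to 1), for all 12394 genes in grey, 74 mitochondrial ribosomal protein genes in purple and the 44 cytosolic ribosomal protein genes in red. The red line is the steepest, with 72.7% of its genes within 0.1 of 0 against 58.1% and 49.9%, and at 0 it stands lower than the others since 31 of its 44 genes were higher in Cre-GFP.

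Where the groups did not overlap, the members were mostly higher in Cre-GFP. Both Cre-GFP arrays read above both control arrays for 13 members (15.2% of all genes did so, or 1883) and below both for 2, Rps27l and Rpl3l (14.9% of all genes). The 13 were split between 8 large and 5 small subunit genes. The median difference was 0.050 in the large and 0.031 in the small subunit, with 17 of 24 and 14 of 20 genes higher. The difference between the subunits was not tested. These counts depend on which probe set stands for a gene. Over all 95 probe sets of the members 51 were higher and 44 lower, with a median of 0.015. On 102 probe sets that carry several symbols, at least 1 of them a ribosomal protein gene, 61 were higher and 41 lower, with a median of 0.031 and a range from −0.34 to 0.34.

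Control 1 was more often the lowest array among the members than among all genes. Relative to each gene's mean, the members' median stood at 0.027 and 0.0058 in Cre-GFP 1 and 2 and at −0.042 and −0.0013 in control 1 and 2. Control 1 was the lowest array for 22 of the 44 members, against 21.8% of all genes. Without control 1 the median difference was 0.028, with 26 members higher. The gap between the controls was larger than the group difference for 27 of the 44, a share like that of all genes (7837 of 12394). Leaving out 1 array moved the difference by over 1.5 times, or turned its sign, for 37 members. The other 7 were Rpl3l, Rps27l, Rps7, Rpl22, Rpl39l, Rps18 and Rpl6. The sign held whichever array was left out for 22 members. Neither count was made over all genes, and small differences pass such a ratio easily. The 18 hybridization control probe sets are for RNA added at a fixed amount, but some are named for Cre, which the Cre-GFP cells received. They stood 0.41 above their mean in control 1 and at −0.046, −0.15 and −0.22 in control 2, Cre-GFP 2 and Cre-GFP 1. Their part in the ribosomal protein values was not tested.

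**Figure D3:**
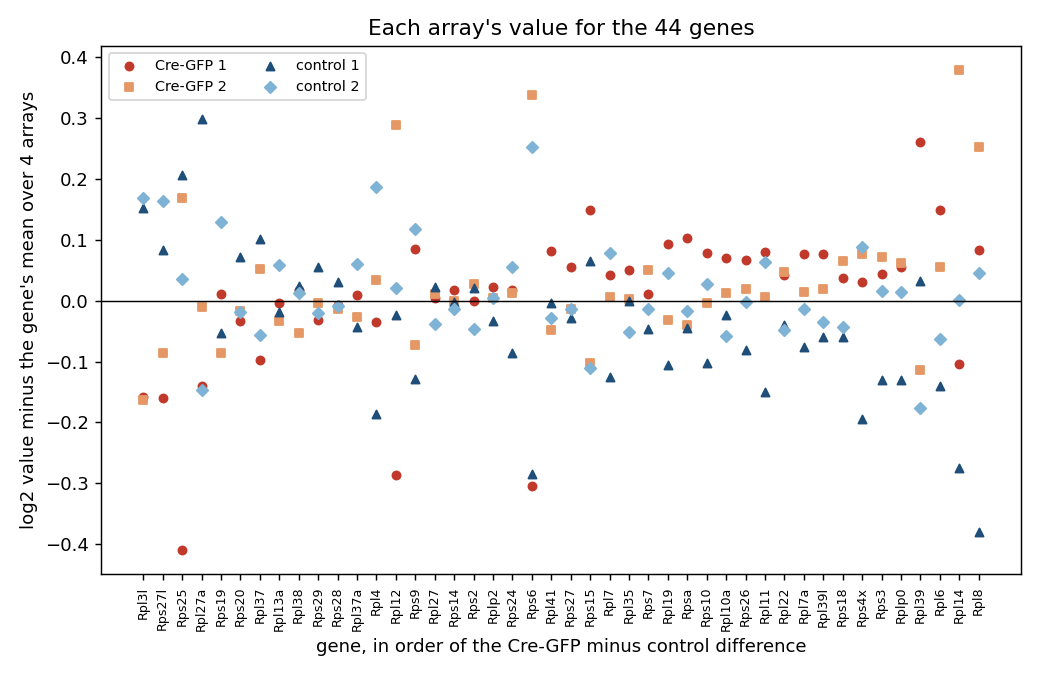
Log2 value of each array minus the gene's mean over the 4 arrays (vertical axis) for the 44 genes, ordered along the horizontal axis by the Cre-GFP minus control difference. Control 1 (dark blue triangles) is the lowest array in 22 genes, while Rps6, Rpl12 and Rps25 show the widest gaps between arrays of 1 group.

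Among large subunit genes, Rpl8, a protein close to the catalytic centre of the ribosome, read 13.03 and 13.20 in Cre-GFP, with 12.57 and 12.99 in control. Both Cre-GFP values were higher, but the gap between the controls exceeded the difference of 0.33 ± 0.17 (1.26-fold, SE, n = 2 per group; limma adjusted p = 1). It was 0.12 without control 1 and 0.55 without control 2. Rpl6 read 13.05 and 12.96 against 12.76 and 12.84, a difference of 0.20 ± 0.12 without overlap, and between 0.16 and 0.25 on leaving out 1 array at a time. Rpl14 read 8.28 and 8.76 against 8.11 and 8.39 and Rpl39, a small protein that lines the exit tunnel, 8.50 and 8.13 against 8.27 and 8.06. The groups overlapped for both of these, with differences of 0.27 ± 0.22 and 0.15 ± 0.20. With Cre-GFP 1 left out Rpl14 stood at 0.52 and Rpl39 at −0.042, while leaving out Cre-GFP 2 gave 0.032 and 0.33. Brighter probe sets that list Rpl14 beside other symbols differed by 0.067 to 0.14. A brighter probe set that lists Rpl39 beside other symbols differed by −0.13.

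The stalk carries the factors of translation on the large subunit. Rplp0, its base, read 13.79 and 13.80 in Cre-GFP, with 13.61 and 13.75 in control, a difference of 0.12 ± 0.11 without overlap (0.044 without control 1, 0.19 without control 2). Rplp2, one of the acidic proteins bound to that base, read 14.22 and 14.21 against 14.17 and 14.21, a difference of 0.028 ± 0.090. Rplp1 lay only on probe sets with several symbols.

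Rpl11, the Mdm2-binding protein, read 12.63 and 12.56 in Cre-GFP, with 12.40 and 12.61 in control. The groups overlapped, and the difference of 0.086 ± 0.14 became −0.021 without control 1. Rpl5, its partner, lay only on probe sets with several symbols. Rpl22, which is needed for normal T cell development, read 12.27 and 12.27 against 12.19 and 12.18. The groups did not overlap, with a difference of 0.089 ± 0.13, and a second, dimmer probe set of Rpl22 differed by 0.33. Rpl41, one of the shortest proteins known, read 14.28 and 14.14 against 14.19 and 14.17 and did not separate the groups. Rpl13a, which can leave the ribosome in interferon-treated myeloid cells, differed by −0.039 ± 0.10, Rpl37 by −0.045 ± 0.16 and Rpl27a by −0.15 ± 0.20, each with overlapping groups. Rpl27a rested on control 1, at 8.66 beside 8.22 in control 2 and 8.23 and 8.35 in Cre-GFP. A brighter probe set that lists Rpl27a beside other symbols differed by −0.058.

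In the small subunit, the direction held whichever array was left out for Rps18, Rps3, Rps7, Rps10, Rps14, Rps20, Rps26, Rps27, Rps27l and Rps28. Rps18 read 14.11 and 14.14 in Cre-GFP, with 14.01 and 14.03 in control, a difference of 0.10 ± 0.092. That difference lay between 0.089 and 0.12 on leaving out 1 array at a time. Its 5 other probe sets differed by −0.098 to 0.17. The negative ones, at −0.098 and −0.035, read 4.51 to 4.80, near the arrays' 20th percentile (4.69 to 4.76). Those with group means of 13.51 to 14.06 differed by 0.17 and 0.042. Rps3, a protein at the mRNA entry channel, read 13.84 and 13.87 against 13.67 and 13.82 (0.11 ± 0.10, and 0.042 without control 1), again without overlap. Rps4x, encoded on the X chromosome, read 13.72 and 13.77 against 13.50 and 13.78 (0.11 ± 0.13, and −0.035 without control 1). Rpsa, also known as a laminin receptor, read 14.37 and 14.23 against 14.22 and 14.25, and Rps28 14.34 and 14.33 against 14.37 and 14.33. Neither of these separated the groups.

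Rps6, the protein phosphorylated by the S6 kinases downstream of mTORC1, had the widest replicate gap among the members, on a probe set with a mean of 9.49. It read 9.18 and 9.82 in Cre-GFP, with 9.20 and 9.74 in control, so that replicate 2 was the higher array in both groups. The difference was 0.032 ± 0.29, and ranged from −0.29 to 0.35 on leaving out 1 array at a time. Brighter probe sets that list Rps6 beside other symbols, with means of 12 or more, had smaller gaps in both groups. Rps25, known for its part in initiation on viral internal entry sites, read 11.44 and 12.02 against 12.06 and 11.89. Its difference of −0.24 ± 0.22 came from Cre-GFP 1, and it was 0.048 without that array. A brighter probe set that lists Rps25 beside other symbols differed by 0.050. Rps27 read 7.16 and 7.09 against 7.08 and 7.09, and Rps20 13.84 and 13.85 against 13.94 and 13.85. A probe set that lists Rps27 beside other symbols had group means of 14.39 in Cre-GFP and 14.40 in control, a difference of −0.013.

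Of the genes mutated in Diamond-Blackfan anaemia 12 were members, and all 12 differed by less than 0.1, from −0.076 for Rps19 to 0.086 for Rpl11. Their median was 0.036, with 8 higher and 4 lower. Rps19 read 13.03 and 12.94 in Cre-GFP, with 12.97 and 13.15 in control, with overlapping groups. Rps14, whose loss underlies the anaemia of the 5q deletion in humans, read 14.19 and 14.17 against 14.17 and 14.16, a difference of 0.016 ± 0.090. Its 95% interval ran from −0.20 to 0.24. The groups did not overlap, though this was the smallest difference among the 13 genes that were higher without overlap.

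The 3 members whose symbols end in l, paralogs of standard ribosomal proteins, included both genes that were lower without overlap. Rps27l, a paralog of Rps27 that p53 induces, read 10.88 and 10.96 in Cre-GFP, with 11.13 and 11.21 in control. This is 1.19-fold lower, a difference of −0.25 ± 0.15 (limma adjusted p = 1), and between −0.29 and −0.21 on leaving out 1 array at a time. Its other probe sets differed by −0.25 and −0.27, and all 3 have IDs that mark probes shared between transcripts. Rpl3l, the muscle form, read 5.06 and 5.06 against 5.37 and 5.39, a difference of −0.32 ± 0.096 (limma adjusted p = 0.78 over all genes). These readings are dim, with the 20th percentile of the arrays between 4.69 and 4.76. Rpl39l, the testis form of Rpl39, read 4.65 and 4.59 against 4.51 and 4.54, below that percentile on every array.

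**Figure D4:**
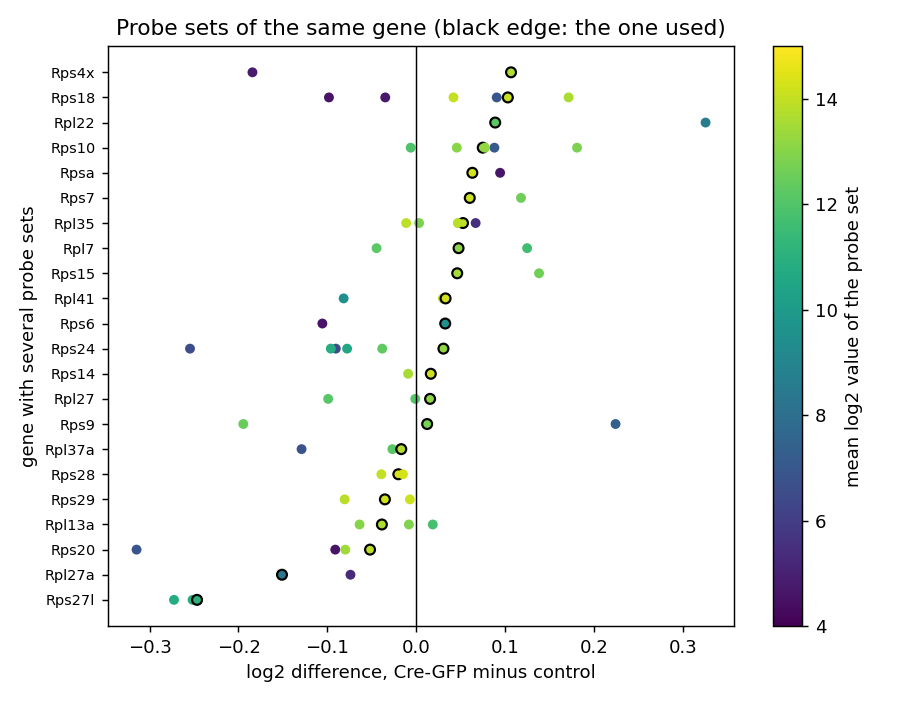
Log2 difference, Cre-GFP minus control, of every single-symbol probe set (horizontal axis) for the 22 genes with several such probe sets, coloured by the probe set's mean log2 value, with a black edge on the one used for the gene. Rps27l has all 3 points between −0.27 and −0.25, while 12 of the 22 genes have points on both sides of 0.

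Agreement between probe sets was limited at this scale of change. Of the 22 genes with several probe sets, 10 had all of them on 1 side of 0. The median range of differences within a gene was 0.11, beside a median size of 0.060 for the members' differences. A range and a size are unlike measures, and a range can widen with more probe sets. The largest range was 0.42, in Rps9, a core protein of the small subunit named after its values were seen, whose probe sets ran from −0.19 to 0.22. Rps28, Rps29 and Rps7 each kept 1 direction over their probe sets. These counts and ranges take in dim probe sets. Among them, the dimmest of Rpsa, Rps20, Rps6 and Rps4x had group means of 4.51 to 4.89, near the arrays' 20th percentile.

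Of the ribosomal protein genes outside the symbol rule 5 were measured and all 5 were higher in Cre-GFP (median difference 0.13), none past limma's threshold. Fau, a fusion of a ubiquitin-like protein and Rps30, read 12.74 and 12.59 in Cre-GFP, with 12.50 and 12.77 in control (0.027 ± 0.15, and −0.10 without control 1). Rps3a1 read 13.63 and 13.70 against 13.33 and 13.72, and Rpl22l1, the paralog of Rpl22, 12.67 and 12.81 against 12.47 and 12.74. Rps4l, left out as a RefSeq pseudogene, read 5.16 and 4.85 against 4.57 and 4.85. These differed by 0.14, 0.13 and 0.30, and control 1 was the lowest array for all 5 genes. Without control 1 Rps3a1 and Rpl22l1 turned to −0.050 and −0.0038, and Rps4l was 0.15.

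The arrays also carry 3 control probe sets for 18S ribosomal RNA. The 5′ one read 11.79 and 11.17 in Cre-GFP, with 11.21 and 11.15 in control, the middle one 9.30 and 9.17 against 9.83 and 9.20, and the 3′ one 10.02 and 9.68 against 10.21 and 9.42. The groups overlapped on each of them. Whether these probe sets follow the amount of ribosomal RNA in the cells, after amplification, was not tested.

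Other parts of the translation apparatus, from lists of general knowledge, also held 0 genes past the threshold. Of 13 measured elongation and release genes 9 were higher, with a median of 0.078; Eef1d, an exchange factor subunit for eEF1A, differed by 0.30 ± 0.16, Gspt1, a release factor, by 0.37 ± 0.21 and Eef2, the translocase, by 0.19 ± 0.17. Without control 1 Gspt1 was 0.15 and Eef2 0.033, and without control 2 they were 0.59 and 0.34. On the dimmest probe set of each gene Gspt1 differed by 0.097 and Eef1d by 0.17. Of 38 initiation genes 24 were higher, with a median of 0.047. Eif2s3y, the Y-linked gamma subunit of eIF2, had the smallest p, at 7.44 and 7.48 in Cre-GFP, with 7.92 and 8.31 in control (−0.66 ± 0.18, limma adjusted p = 0.74). Eif2s3x, of the same list and named after its values were seen, differed by 0.023 ± 0.25. Eif1a differed by 0.35 ± 0.18 and Eif3b, a scaffold of eIF3, by 0.20 ± 0.15. Without Cre-GFP 2 Eif1a was 0.23.

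Of 20 measured ribosomal protein chaperones and late assembly factors 13 were higher, with a median of 0.11. Grwd1, a chaperone of Rpl3, read 9.58 and 9.63 against 9.32 and 9.13 (0.38 ± 0.17). Nle1 differed by 0.30 ± 0.15 and Mdn1, a giant ATPase that remodels the large subunit precursor, by 0.47 ± 0.25, with −0.038 on Mdn1's dimmest probe set. Mdn1 was 0.77 without control 1 and 0.17 without control 2. For 13 measured genes of mTORC1 control the median was 0.072, with 7 higher and 6 lower. Eef2k, which inhibits Eef2, differed by −0.32 ± 0.15, Pdcd4, an inhibitor of eIF4A, by −0.35 ± 0.20 and Eif4ebp2, an inhibitor of eIF4E, by 0.24 ± 0.19. Pdcd4 ran from −0.59 without control 1 to −0.12 without control 2, and Eif4ebp2 from 0.41 to 0.060. None of the genes named here passed limma's test over all genes.

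Mitochondrial ribosomal proteins, made in the same cytosol for another ribosome, showed no lean to either side. Of 74 measured genes 36 were higher and 38 lower, with a median of −0.018 and a range from −0.34 to 0.41. Mrps5 differed by 0.36 ± 0.15, Mrpl19 by 0.35 ± 0.17 and Mrpl50 by 0.29 ± 0.15 (0.14 without control 1, 0.44 without control 2). On the dimmest probe set of each gene Mrpl19 differed by 0.0105, Mrps5 by 0.26 and Mrpl50 by 0.32. The difference between this list and the cytosolic genes was not tested.

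Cell type and RNA quality values that moved in the same arrays are given for reference. Of 17 measured B lineage markers 14 were lower in Cre-GFP, and their summed intensity was 36820 and 35756 in Cre-GFP against 40669 and 50494 in control. The 16 monocyte and macrophage markers summed to 7115 and 5156 against 2641 and 4697 and the 12 neutrophil markers to 3862 and 4565 against 1635 and 5410. Of the monocyte markers 12 were higher (median 0.13), and of the neutrophil markers 8 (median 0.41). The 12 erythroid markers summed to 956 and 999 against 1746 and 1713, with 4 higher, 8 lower and a median of −0.059. Without Car2 the other 11 summed to 564 and 535 against 560 and 553. The 13 T and NK markers summed to 1963 to 2452 over the arrays and the 12 megakaryocyte and mast cell markers to 670 to 719. The 3′ minus 5′ gap of the beta-actin control probe sets was 3.36 and 3.04 against 3.60 and 2.81, and that of Gapdh 3.99 and 4.32 against 4.32 and 4.24. The part of these values in the ribosomal protein differences was not tested, and in such bulk samples fewer cells of a type and less RNA per cell cannot be told apart.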

How the data were processed

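Linear probe set intensities were deposited by the authors for 22690 probe sets on 4 arrays, and the submitters' processing notes name RMA, with no version. Per the labels' protocols, amplification used NuGen Ovation and 20 ng of RNA. RMA normally equalizes arrays, so a shift shared by most transcripts would not be seen. Intensities were log2 transformed and not normalized again. Of the probe sets, 20393 had a single symbol, 691 had several and 1606 had no symbol. The brightest probe set on average stood for a gene, and levels of different probe sets are not comparable. The test was limma 3.58.1 under R 4.3.3 (lmFit, then eBayes with trend, two-sided, Benjamini-Hochberg over 12394 genes, threshold 0.05), tested on simulated data. With so few arrays precision is low: the members' 95% intervals had a median half-width of 0.28.

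The members and lists were chosen with earlier results of these data known. Named genes were members past the threshold, the 8 largest differences each way, up to 10 with the smallest p under 0.05 and no overlap, the 4 highest and 4 lowest means, genes chosen by function, and up to 3 with the smallest p per list. Alternatives were other probe set choices, median centring, quantile normalization, raising dim values, leaving out dim genes, other tests, other member sets, a replicate block and leaving out each array.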

Additional observations from a re-analysis of the deposited data

How the results depend on the processing

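The count of members past the threshold was 0 under every alternative run. Over all genes it was 0, but 2 with the ordinary two-sample test and 0 to 135 on leaving out an array (135 without control 1, 34 without control 2; the lone array is then assumed to vary like the other group). The members' median difference was 0.037, and 31 were higher. Without probe sets whose IDs mark shared probes, 22 members were left, with a median of 0.062 and 17 higher. Leaving out an array gave medians of 0.028 to 0.057 and 26 to 32 higher. With the replicate block the median was 0.037 and 0 members were called. Replicate 1 minus 2 differences of the groups correlated across genes at 0.349, but 2 pairs do not show that the numbers pair arrays.

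Of 610 values of the 45 named genes over the alternatives, 28 changed sign from the main setting, and the cause was not tested. The other tests and the replicate block leave the differences as they are. With the lowest-mean probe set these were Eif4ebp2 (−0.081), Mdn1 (−0.038, also without shared-probe IDs), Rpl13a (0.018), Rps14 (−0.0093), Rps18 (−0.098), Rps4x (−0.18) and Rps6 (−0.11). With the mean of all probe sets they were Rps4x (−0.039) and Rps6 (−0.037), and with dim values raised Rpl39l (−0.0036). The lowest-mean probe sets of Rps18, Rps4x and Rps6 had group means of 4.51 to 4.89, near the arrays' 20th percentile (4.69 to 4.76). Leaving out 1 array gave −0.10 to 0.16 for Fau, −0.021 to 0.19 for Rpl11, −0.078 to 0.00 for Rpl13a, −0.0038 to 0.27 for Rpl22l1, −0.37 to 0.071 for Rpl27a and −0.12 to 0.034 for Rpl37. It gave −0.042 to 0.33 for Rpl39, −0.032 to 0.098 for Rpl41, −0.17 to 0.015 for Rps19, −0.53 to 0.048 for Rps25, −0.050 to 0.33 for Rps3a1, −0.035 to 0.25 for Rps4x, −0.29 to 0.35 for Rps6 and −0.0081 to 0.13 for Rpsa.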
